A study of Mus musculus with 4 samples.

Results

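The 9 genes described here, B2m, Tap1, Tap2, Tapbp, Psmb8, Psmb9, Psmb10, Erap1 and Nlrc5, encode machinery that makes peptides and loads them onto MHC class I molecules. They were chosen by symbol from a list, and all 9 were found among the 18193 genes of the array annotation, in 16 probe sets that name only one of them. Nucleated cells use this pathway to show fragments of their own proteins to CD8 T cells. Proteasomes cut proteins into peptides. In cells exposed to interferon gamma, the catalytic subunits Psmb8, Psmb9 and Psmb10 take the places of Psmb5, Psmb6 and Psmb7 and form the immunoproteasome. The TAP transporter, built from Tap1 and Tap2, carries the peptides into the endoplasmic reticulum. There the aminopeptidase Erap1 trims them, and tapasin (Tapbp) holds empty class I molecules, made of a heavy chain and beta-2-microglobulin (B2m), next to TAP. Nlrc5 is the transactivator of class I genes.

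Total RNA came from mouse peritoneal macrophages that had been elicited with thioglycolate and then kept on permanox slides for 18 hours. The 4 groups were Dap12-KO cells with IL-4, Dap12-KO cells untreated, wild type cells with IL-4 and wild type cells untreated, with 1 array each. The stated purpose was to learn how DAP12, the ITAM adaptor encoded by Tyrobp, shapes expression at rest and after IL-4, the cytokine of alternative activation. Strain, age, dose of IL-4 and the number of mice behind a sample are not given in the sources used here. With 1 array a group there is no replicate error, so differences between 2 arrays are values without a test, and the number of arrays limits their precision. A level below is a log2 probe set value, a difference is between log2 values, and each gene is read from its brightest probe set unless another is named. In bulk RNA, fewer cells of a type and less RNA per cell cannot be told apart.

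The Dap12-KO IL-4 array stood apart from the other arrays. The span between the 25th and 75th percentiles of its values was 2.54, against 3.19 to 3.25 on the other arrays, and its correlation with them over all probe sets was 0.936 to 0.949, against 0.973 to 0.991 among those. For the 9 genes, differences that use it are therefore also given after cyclic loess, which removes level-dependent shifts between arrays. Tyrobp, the targeted gene, read 13.27 and 14.03 on the arrays labelled Dap12-KO with IL-4 and untreated, against 14.13 and 14.39 on the matching wild type arrays. Its signal does not bear out the label, and where its probes lie relative to the deleted part is not known. Genotype directions below rest on the labels alone.

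Macrophage markers were bright on all arrays. All 8 lay above the level floor, the median of all values (6.39), and their levels summed to 96.0, 103.2, 98.9 and 100.4 on the Dap12-KO IL-4, Dap12-KO untreated, wild type IL-4 and wild type untreated arrays. Of 5 measured B cell markers, 5, 4, 4 and 4 lay above the floor in that order of arrays, and the 5 levels summed to 39.0, 41.5, 38.6 and 38.4. Ms4a1, the brightest of them, reached 9.76 on the untreated Dap12-KO array. Of 6 mast cell markers 3 lay above the floor on each array, and the 6 levels summed to 38.5, 41.5, 37.5 and 37.8. The macrophage, B cell and mast cell sums were thus all highest on the untreated Dap12-KO array. The B cell and mast cell sums include markers below the floor. Among macrophage markers, Mertk and Fcgr1 lay furthest above untreated wild type there, by 1.97 and 0.82. Itgam and Cd14 differed by −0.33 and −0.68. Dendritic cell and neutrophil sums were instead highest on the Dap12-KO IL-4 array, at 52.1 and 48.5. So were the T and NK cell sum (44.9) and the mesothelium and fibroblast sum (50.5). The eosinophil sum was highest on the wild type IL-4 array, at 23.3. These sums too include markers below the floor. The dendritic cell sum was 52.0 on the wild type IL-4 array. Of 7 neutrophil markers, 5 lay above the floor on the Dap12-KO IL-4 array, against 1 or 2 on the others. S100a8, the brightest of them on the other arrays, was lowest on the Dap12-KO IL-4 array, at 7.86 against 9.20 to 10.09. Of 7 T and NK cell markers, 2 or 3 lay above the floor on each array.

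Sequences before the gene starts are shown to place the genes relative to interferon control elements. Tap1, Psmb9, Psmb8 and Tap2 are direct neighbours on chromosome 17, in the order Psmb9, Tap1, Psmb8, Tap2. Psmb9 and Tap1 are read in opposite directions with 225 bases between their starts, so one stretch serves as the upstream sequence of both. B2m is shown for its IRF core, Psmb8 for its GAS form, Psmb10 because it was the gene with the highest IL-4 values relative to untreated, and Erap1 for the bases around its start. Capitals mark the IRF core GAAANNGAA, the GAS form TTCNNNGAA and the CCAAT box, on either strand. The sequences are from RefSeq, build GRCm38.p6.
Psmb9 to Tap1, chr17:34187331-34187555, strand of Tap1: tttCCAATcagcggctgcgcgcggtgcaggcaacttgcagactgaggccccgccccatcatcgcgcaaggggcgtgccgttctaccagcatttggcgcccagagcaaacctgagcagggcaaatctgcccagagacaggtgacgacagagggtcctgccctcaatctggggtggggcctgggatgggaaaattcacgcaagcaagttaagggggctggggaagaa
B2m, chr2:122147437-122147686, plus strand: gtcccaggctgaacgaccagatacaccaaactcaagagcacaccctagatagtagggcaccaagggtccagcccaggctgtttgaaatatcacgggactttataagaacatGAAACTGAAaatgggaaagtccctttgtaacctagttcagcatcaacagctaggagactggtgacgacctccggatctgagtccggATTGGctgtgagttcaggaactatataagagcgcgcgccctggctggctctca
Psmb8, chr17:34197945-34198194, plus strand: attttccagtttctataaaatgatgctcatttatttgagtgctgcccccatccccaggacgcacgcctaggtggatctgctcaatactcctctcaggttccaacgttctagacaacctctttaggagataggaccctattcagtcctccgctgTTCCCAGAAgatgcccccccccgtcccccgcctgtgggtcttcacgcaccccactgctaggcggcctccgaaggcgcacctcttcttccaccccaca
Psmb10, chr8:105938393-105938642, minus strand: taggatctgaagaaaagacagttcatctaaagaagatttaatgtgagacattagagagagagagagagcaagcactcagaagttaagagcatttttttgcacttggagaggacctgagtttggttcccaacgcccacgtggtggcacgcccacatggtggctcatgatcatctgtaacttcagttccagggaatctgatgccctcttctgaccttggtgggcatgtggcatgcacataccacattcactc
Erap1, chr13:74639837-74639866, plus strand: gtccaccTTCACTTTCACTTTCggtcccgg

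A window of 300 bases around the start was given for 7 of the 9 genes, without Tap2 and Nlrc5. The IRF core stood in 2 of these 7, B2m and Erap1, and in 8.56% of all 32851 windows. In B2m it began 139 bases before the start, and Erap1 held 2 overlapping copies, the first of them beginning 9 bases before the start. The GAS form, to which STAT factors bind, stood in 1 of 7, Psmb8, 97 bases before the start, and in 8.30% of all windows. The CCAAT box was in 4 of 7 and in 37.4% of all windows. Tap1 and Psmb9 are both among the 4 through the same copy, in the stretch between their starts. None of the 3 forms stood in the window of Psmb10. A match of letters is a description and shows no binding.

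As deposited, Psmb10 was the immunoproteasome subunit with more signal after IL-4 in both genotypes. After cyclic loess Psmb8 was higher in both too, at 0.34 in Dap12-KO and 0.10 in wild type. Psmb10 read 11.95 on the Dap12-KO IL-4 array and 11.03 on the Dap12-KO untreated array, and 11.50 on the wild type IL-4 array and 11.08 on the wild type untreated array. Both IL-4 arrays thus lay above both untreated arrays. The IL-4 difference was 0.92 in Dap12-KO (1.90-fold) and 0.41 in wild type (1.33-fold), below 2-fold in each. It was higher than the differences of 90.6% of the 12767 genes above the level floor in Dap12-KO, and of 94.7% in wild type. After cyclic loess it was 2.83-fold higher in Dap12-KO, and differed by 0.45 in wild type. Between genotypes Psmb10 differed by 0.46 with IL-4 and by −0.05 untreated, and after cyclic loess by 1.10 and 0.04.

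Psmb9 went the other way with IL-4 in wild type. It read 9.97 and 10.42 on the Dap12-KO arrays with IL-4 and untreated, against 9.59 and 9.99 on the wild type arrays with IL-4 and untreated. Each Dap12-KO array lay above the wild type array of the same treatment, by 0.39 with IL-4 and 0.42 untreated. After cyclic loess these differences were 1.11, past 2-fold, and 0.53. The IL-4 difference was −0.44 in Dap12-KO and −0.41 in wild type, but after cyclic loess it was 0.21 and −0.37, so its sign in Dap12-KO depends on the scaling. As deposited, Psmb9 was highest on the untreated Dap12-KO array, as the macrophage, B cell and mast cell marker sums were, and the part of those cells in its values was not tested. After cyclic loess Psmb9 was highest on the Dap12-KO IL-4 array, at 10.52, against 10.31 on the untreated one.

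Psmb8 differed little between arrays as deposited. It read 10.83 and 11.09 on the Dap12-KO arrays with IL-4 and untreated, and 11.12 and 11.06 on the wild type arrays with IL-4 and untreated. The span over the 4 arrays was 0.30. The IL-4 difference was −0.26 in Dap12-KO and 0.06 in wild type. The genotype difference was −0.30 with IL-4 and 0.03 untreated, and 0.37 and 0.13 after cyclic loess, so the sign with IL-4 depends on the scaling. Its other probe set was below the level floor on all 4 arrays.

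**Figure D1:**
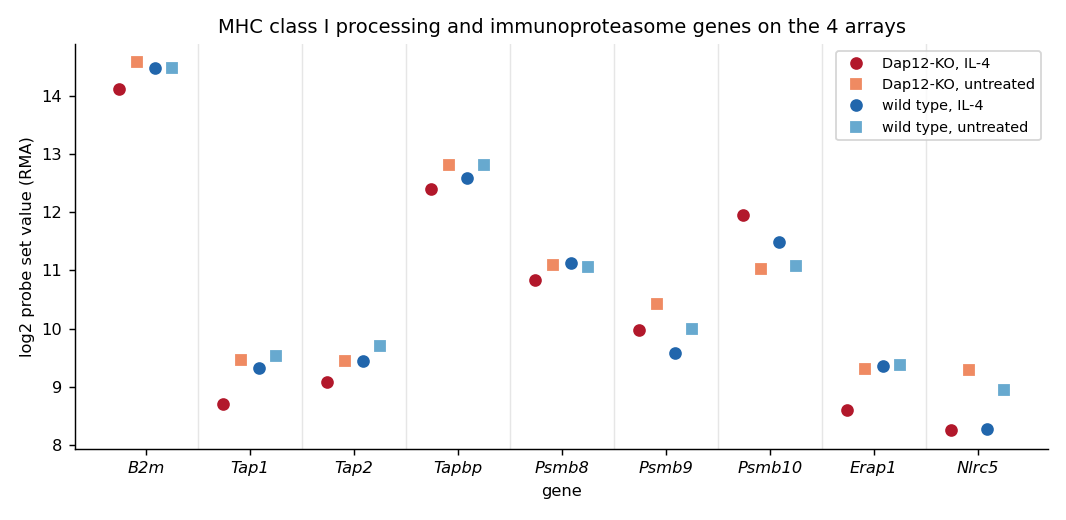
Levels of the 9 genes on the 4 arrays, as log2 probe set values of each gene's brightest probe set. Each point is 1 array and there are no error bars because each group has 1 array. Psmb10 has its highest points on both IL-4 arrays, and Nlrc5 has its lowest points there.

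The subunits were next set against the constitutive counterparts they replace, as the difference of 2 log2 differences, in which a shift common to both genes cancels. This contrast was chosen after values had been seen. Without treatment the constitutive subunits were lower on the Dap12-KO array, with differences of −0.39 for Psmb5, −0.23 for Psmb6 and −0.55 for Psmb7. The immunoproteasome subunits were not lower to the same extent, and all 3 pairs leaned towards the immunoproteasome, by 0.42 for Psmb8 over Psmb5, 0.65 for Psmb9 over Psmb6 and 0.50 for Psmb10 over Psmb7. With IL-4 the same genotype contrast gave 0.25, 0.90 and 1.26 in that order, with the same sign in 3 of 3 pairs. After cyclic loess these values were 0.44, 0.68 and 0.51 untreated, and 0.42, 1.09 and 1.34 with IL-4. The genotype contrasts share no array with each other, but each rests on 1 array a side.

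With IL-4, only the Psmb10 and Psmb7 pair moved by more than 2-fold among the 3 pairs. Psmb10 over Psmb7 differed by 1.20 between the Dap12-KO arrays and by 0.44 between the wild type arrays. Psmb8 over Psmb5 differed by 0.05 in Dap12-KO and 0.22 in wild type. Psmb9 over Psmb6 differed by −0.04 in Dap12-KO and −0.28 in wild type, and the first of these was 0.13 after cyclic loess.

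**Figure D2:**
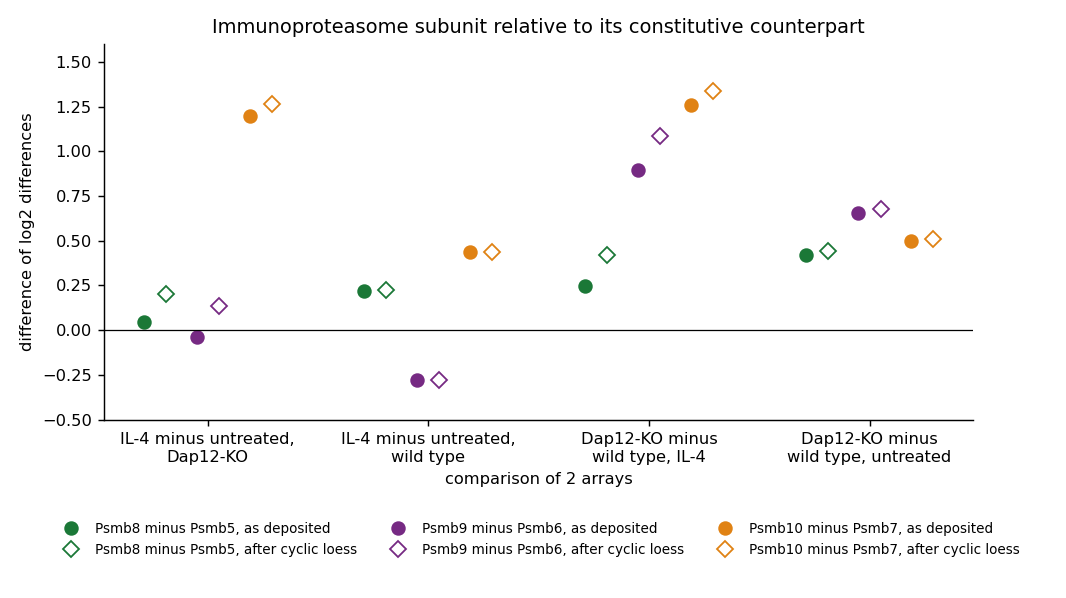
Log2 difference of each immunoproteasome subunit minus that of its constitutive counterpart in 4 comparisons of 2 arrays, as deposited (filled) and after cyclic loess (open). Each point rests on 2 arrays and has no error bar. In both genotype comparisons all 3 pairs lie above 0, between 0.25 and 1.26 as deposited.

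On their brightest probe sets the TAP subunits stayed below 2-fold in every comparison. Tap1 read 8.70 and 9.46 on the Dap12-KO arrays with IL-4 and untreated, and 9.32 and 9.52 on the wild type arrays with IL-4 and untreated. The lowest value was that of the narrower array, and the IL-4 difference was −0.76 in Dap12-KO and −0.20 in wild type. After cyclic loess these became −0.09 and −0.16. Genes whose mean level lay between 9 and 10 had a median IL-4 difference of −0.71 in Dap12-KO, so Tap1 lay close to other genes of its level.

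Tap2 read 9.07 and 9.43 on the Dap12-KO arrays with IL-4 and untreated, and 9.44 and 9.69 on the wild type arrays with IL-4 and untreated. Its IL-4 difference was −0.36 in Dap12-KO and −0.25 in wild type, and 0.31 and −0.21 after cyclic loess. The genotype difference was −0.37 with IL-4 and −0.26 untreated, and 0.36 and −0.16 after cyclic loess. Although Tap1 and Psmb9 share the stretch between their starts, their genotype differences untreated were −0.06 for Tap1 and 0.42 for Psmb9.

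The other 3 Tap1 probe sets were near background. The probe sets 1449803_x_at and 1448177_at read 6.56 and 6.50 on the Dap12-KO IL-4 array and between 5.38 and 5.49 on the other 3 arrays, so they were 2-fold higher there while the bright probe set was lower. After cyclic loess their IL-4 differences in Dap12-KO were 0.83 and 0.85, short of 2-fold. Genes above the level floor with a mean level below 7 had a median IL-4 difference of 0.52 in Dap12-KO. The floor keeps a dim gene only where its highest array reaches 6.39, which favours genes that read high on some array. Over all probe sets, the 25th percentile was 5.47 on the Dap12-KO IL-4 array and 5.31 on the untreated one. What raised the dim Tap1 probe sets was not tested. The remaining Tap1 probe set, 1420274_at, was below the floor on all 4 arrays.

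Class I light chain and tapasin transcripts were bright and nearly level. B2m read 14.12 and 14.58 on the Dap12-KO arrays with IL-4 and untreated, and 14.49 and 14.48 on the wild type arrays with IL-4 and untreated. Its other probe set read 13.91, 14.31, 14.12 and 14.08 in the same order. The IL-4 difference of B2m was −0.46 in Dap12-KO and 0.01 in wild type, and −0.13 and 0.04 after cyclic loess. Its genotype difference was −0.37 with IL-4 and 0.10 untreated, and −0.02 and 0.16 after cyclic loess.

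Tapbp read 12.40 and 12.81 on the Dap12-KO arrays with IL-4 and untreated, and 12.60 and 12.81 on the wild type arrays with IL-4 and untreated. Both IL-4 arrays were the lower ones, by −0.41 in Dap12-KO and −0.21 in wild type. A second probe set, 1450378_at, gave −0.18 and −0.20. After cyclic loess the brighter probe set gave 0.08 in Dap12-KO and −0.17 in wild type, and the second gave 0.44 and −0.16. The direction of the Dap12-KO value therefore turned with the scaling on both.

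Erap1 was read by a pair of probe sets that disagreed. The brighter one, 1416942_at, read 8.60 and 9.29 on the Dap12-KO arrays with IL-4 and untreated, and 9.36 and 9.38 on the wild type arrays with IL-4 and untreated. Its genotype difference was −0.77 with IL-4 and −0.08 untreated, and −0.04 and 0.02 after cyclic loess. The other, 1439068_at, read 6.41 and 7.73 on the Dap12-KO arrays, against 8.50 and 8.66 on the wild type arrays. Its genotype difference was −2.09 with IL-4 and −0.93 untreated, and −1.59 and −0.86 after cyclic loess. As deposited, both Dap12-KO arrays lay below both wild type arrays on either probe set, and the gap was wider on the dimmer one. Which transcripts each probe set reads is not given in the sources used here.

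Nlrc5, the class I transactivator, was the gene with the lowest IL-4 values relative to untreated among the 9. It read 8.25 and 9.28 on the Dap12-KO arrays with IL-4 and untreated, and 8.27 and 8.93 on the wild type arrays with IL-4 and untreated. As deposited, both IL-4 arrays lay below both untreated arrays. After cyclic loess the Dap12-KO IL-4 array, at 8.81, lay above the wild type untreated array, at 8.76. The IL-4 difference was −1.03 in Dap12-KO (2.05-fold lower) and −0.66 in wild type (1.58-fold lower). In wild type only 3.42% of the 12767 genes had a lower difference, and in Dap12-KO 16.1% did. After cyclic loess the differences were −0.39 and −0.62, so the value in Dap12-KO fell short of 2-fold and both kept their sign. Between genotypes Nlrc5 differed by −0.03 with IL-4 and 0.35 untreated, and after cyclic loess by 0.67 and 0.44. Nlrc5 was highest on the untreated Dap12-KO array, where the macrophage, B cell and mast cell marker sums were highest too, and their part in it was not tested.

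As deposited, Nlrc5 was the one gene of the 9 whose values spanned at least 1 log2 unit. After cyclic loess Psmb10 (10.87 to 12.42) and Psmb9 (9.42 to 10.52) did so too. The likeness below uses deposited values. Genes with the most similar course over the 4 arrays were named by the smallest Euclidean distance between mean-centred levels. These were Pou6f1, the tyrosine kinase gene Fes and the immunoglobulin superfamily member Igsf8, at distances of 0.073, 0.074 and 0.075 among 12766 genes. The nearest of the other 8 genes was Psmb9, at 0.52. With 4 points per gene such a likeness is a description only.

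Counts at 2-fold were also taken over the 9 genes as a set. With only 9 genes, such counts cannot set the list apart from other genes. All 9 lay above the level floor on every array, so none entered through 1 group. With IL-4 in Dap12-KO, 0 were higher and 1 was lower at 2-fold, Nlrc5, while 8.04% of all genes were higher and 17.6% lower. With IL-4 in wild type 0 were higher and 0 lower, where 1.21% and 1.25% of all genes were. Between genotypes with IL-4, 0 were higher and 0 lower, where 10.9% and 17.6% of all genes were. Without treatment the counts were again 0 and 0, against 3.12% and 3.41%. For the difference of both IL-4 responses, Dap12-KO minus wild type, they were 0 and 0, against 8.15% and 14.8%.

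The median of the 9 differences was −0.44 for IL-4 in Dap12-KO and −0.20 in wild type, beside −0.40 and −0.03 over all genes. Between genotypes it was −0.30 with IL-4 and 0.00 untreated, beside −0.39 and 0.03. These medians and shares over all genes are not matched for level, and the 9 genes had mean levels of 8.68 or more. Level bins from 8 up had medians of −0.71 to −0.44 for IL-4 in Dap12-KO. Between genotypes with IL-4 they had −0.73 to −0.43. After cyclic loess 1 gene was 2-fold higher with IL-4 in Dap12-KO (Psmb10), where 9.79% of all genes were. Under the same scaling 2 were higher between genotypes with IL-4 (Psmb9, 1.11, and Psmb10, 1.10), where 12.6% were, and 1 in the difference of responses (Psmb10, 1.05), where 8.90% were. None was lower, where 5.91%, 5.33% and 5.58% of all genes were.

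**Figure D3:**
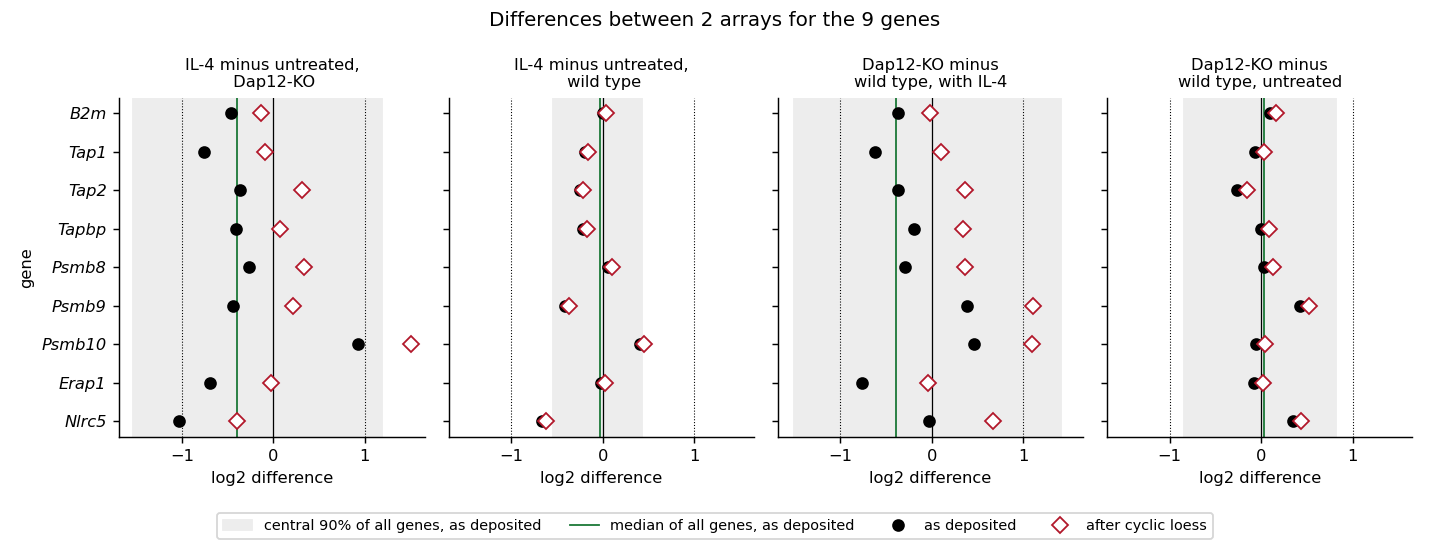
Log2 differences of the 9 genes in 4 comparisons of 2 arrays, as deposited (filled) and after cyclic loess (open diamonds). The grey band holds the central 90% of all 12767 genes, the green line is their median, dotted lines mark 2-fold, and no error bars are drawn because each group has 1 array. Scaling moves the values most where the Dap12-KO IL-4 array enters, and Psmb10 then lies past 2-fold with IL-4 in Dap12-KO.

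**Figure D4:**
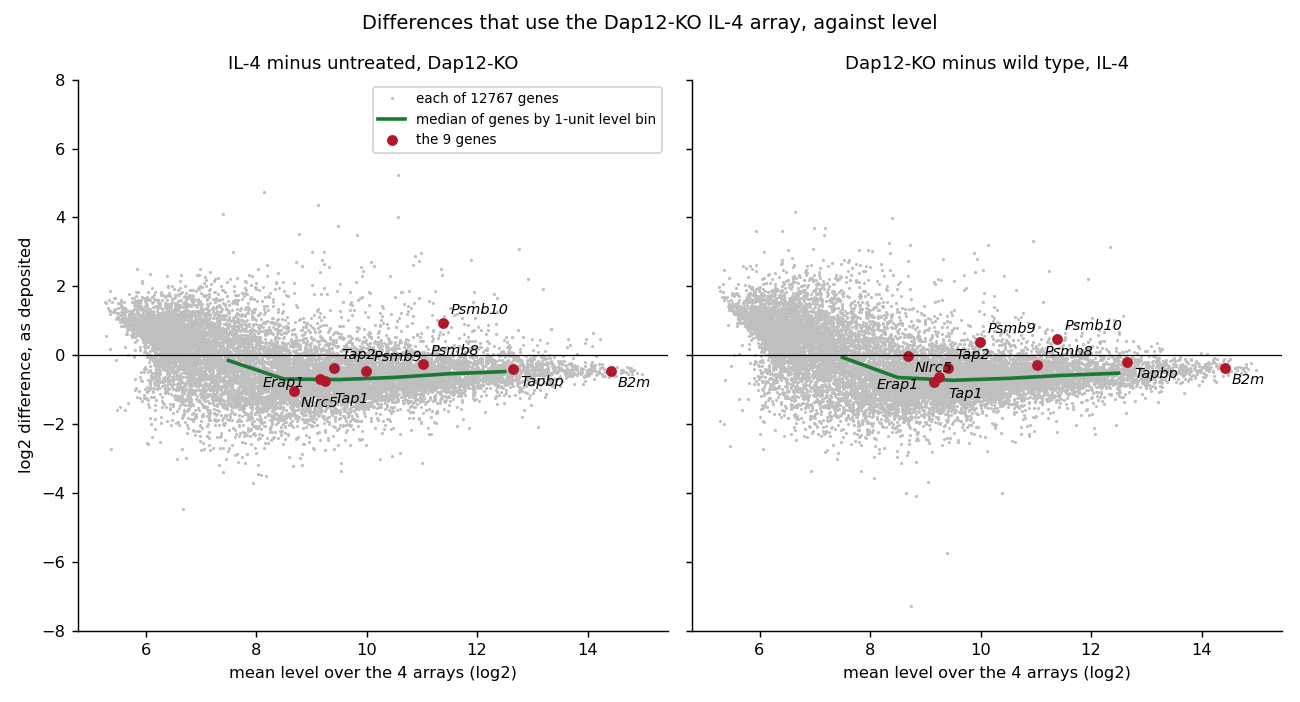
Log2 difference against mean level over the 4 arrays for all 12767 genes (grey) and the 9 genes (red), in both comparisons that use the Dap12-KO IL-4 array. The green line joins medians of 1-unit level bins between 7 and 13. With IL-4 against untreated in Dap12-KO, Psmb10 lies at 0.92, where genes of a mean level between 11 and 12 had a median of −0.54. Between genotypes Psmb10 lies at 0.46 and Psmb9 at 0.39, where genes of their mean levels, between 11 and 12 and between 9 and 10, had medians of −0.58 and −0.73.

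An IL-4 effect common to both genotypes was then fitted in limma across all 12767 genes, with genotype as a block, so that each genotype served as a replicate of IL-4. It passed 0 of the 9 genes at an adjusted p under 0.05, where 1.64% of all genes passed, and 1 of the 9, Nlrc5, had an unadjusted p under 0.05, as did 9.76% of all genes. Nlrc5 had an estimate of −0.85 with a standard error of 0.42 (limma, adjusted p = 0.488), lower with IL-4 in both genotypes. Psmb10 had 0.67 (limma, adjusted p = 0.656), higher in both. The other 7 had estimates between −0.48 and −0.10 and limma adjusted p-values between 0.748 and 0.931. Every gene received the same standard error, since the fit pooled the spread over genes in full with 1 residual degree of freedom. A miss here does not show that a gene was level. After cyclic loess the fit called 0 of all genes, with 856 (6.7%) at an unadjusted p under 0.05.

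Heavy chains and class I relatives followed B2m in part. Of 19 listed genes 11 were measured by a probe set of their own and 9 lay above the floor. H2-K1 and H2-D1, the classical heavy chains, read 13.95 and 14.19 on the Dap12-KO IL-4 array, 14.45 and 14.63 on the Dap12-KO untreated array, 14.10 and 14.30 on the wild type IL-4 array, and 14.30 and 14.47 on the wild type untreated array. Class I heavy chains are near-identical in places, so these probe sets may read more than 1 of them. Their IL-4 differences were −0.50 and −0.44 in Dap12-KO and −0.20 and −0.17 in wild type, and after cyclic loess −0.15 and −0.11 in Dap12-KO and −0.17 and −0.13 in wild type.

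On the untreated Dap12-KO array 2 of the 9 were 2-fold higher and 0 lower than in wild type, where 3.12% and 3.41% of all genes were, both of them partners of B2m outside peptide presentation. Hfe, which regulates iron uptake, differed by 1.67, at 11.09 against 9.42. Fcgrt, the neonatal Fc receptor that recycles IgG and albumin, differed by 1.09, at 11.41 against 10.33. With IL-4 their genotype differences were 0.67 and 0.43, or 1.37 and 1.10 after cyclic loess. The lipid-presenting Cd1d1 and the heavy chain relative H2-T24 were the 2 of 9 lower with IL-4 in Dap12-KO, at −1.42 and −1.29, and 0 were higher, where 17.6% and 8.04% of all genes were. In wild type they differed by −0.61 and −0.18, and after cyclic loess they stood at −0.75 and −0.98 in Dap12-KO, short of 2-fold.

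Partners in the endoplasmic reticulum showed no 2-fold difference in any comparison of 2 arrays, with 11 of 11 measured. Over all genes, 1.21% to 10.9% were higher and 1.25% to 17.6% lower in these comparisons. With 11 genes such a count cannot set the list apart from other genes. The list holds the chaperones Calr and Canx, the oxidoreductase Pdia3 that joins tapasin, and the peptide editor Tapbpl. Their IL-4 differences were −0.48, −0.66, −0.63 and −0.22 in Dap12-KO, and −0.04, −0.09, 0.05 and −0.33 in wild type. The list median was −0.48 for IL-4 in Dap12-KO and −0.06 in wild type, beside −0.40 and −0.03 over all genes. After cyclic loess the medians were 0.02 and −0.02.

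Of 17 listed regulators of class I genes 15 lay above the floor. With IL-4 in Dap12-KO 1 was higher and 3 lower at 2-fold, where 8.04% and 17.6% of all genes were. In wild type 1 was higher and 0 lower, where 1.21% and 1.25% of all genes were. The one higher in both was Socs1, an inhibitor of interferon receptor signalling, which read 8.68 and 6.46 on the Dap12-KO arrays with IL-4 and untreated, and 7.74 and 6.16 on the wild type arrays with IL-4 and untreated. Socs1 rose by 1.90 over both genotypes (limma, adjusted p = 0.00115), a call that was lost after cyclic loess, where the fit passed 0 genes. Its IL-4 differences after cyclic loess were 2.48 in Dap12-KO and 1.63 in wild type. Its wild type untreated level lay below the floor.

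The 3 regulators lower in Dap12-KO were the myeloid factor Irf8 (−1.65), the ISGF3 subunit Irf9 (−1.62) and the RFX subunit Rfxap (−1.11), which differed by −0.98, −0.49 and −0.31 in wild type. After cyclic loess Irf8 alone of these stayed past 2-fold, at −1.03. Irf1, which drives Psmb9 and Tap1 transcription after interferon gamma, read 11.74 and 11.24 on the Dap12-KO arrays with IL-4 and untreated, and 10.99 and 11.24 on the wild type arrays with IL-4 and untreated. Its IL-4 difference was 0.49 in Dap12-KO and −0.25 in wild type, and 1.08 and −0.21 after cyclic loess. Between genotypes with IL-4, 4 regulators were lower and 0 higher, namely Irf9 (−1.45), Rfxap (−1.31), Irf2 (−1.23) and Ifnar1 (−1.03), where 17.6% of all genes were lower and 10.9% higher. After cyclic loess this became 0 lower and 3 higher, where 5.33% of all genes were lower and 12.6% higher. The direction of that count thus rests on the scaling, as it does over all genes.

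Other interferon-inducible genes were counted beside the 9. Among GTPases and chemokines of the interferon gamma response, 7 of 10 listed genes lay above the floor, with a median of −0.77 in Dap12-KO and −0.64 in wild type. Irgm2 (−1.67), Gbp3 (−1.13) and Irgm1 (−1.06) were the 3 past 2-fold in Dap12-KO, and Gbp2 (−1.06) was the 1 in wild type. Over all genes 17.6% were lower in Dap12-KO and 1.25% in wild type. None of the 7 was higher. After cyclic loess Irgm2 alone of these was past 2-fold in Dap12-KO, at −1.05, where 5.91% of all genes were lower. Gbp3 and Irgm1 then stood at −0.47 and −0.39, and the medians at −0.39 in Dap12-KO and −0.60 in wild type. Of 11 antiviral genes above the floor, 4 were lower in Dap12-KO and 7 in wild type, with 0 higher, beside 17.6% and 1.25% of all genes lower, and their medians were −0.84 and −1.15. Ifit1, Ifit2 and Oas3, which restrict viral RNA, fell over both genotypes, by 1.45, 1.48 and 1.49 (limma, adjusted p = 0.037, 0.0319 and 0.0293). These 3 calls were lost after cyclic loess, where the fit passed 0 genes. Under that scaling 1 of the 11 was 2-fold lower in Dap12-KO, where 5.91% of all genes were, and the medians were −0.39 in Dap12-KO and −1.11 in wild type. The 9 class I genes had no member past 2-fold in wild type, and the difference between the lists was not tested.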

How the data were processed

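The authors deposited log2 values per probe set, which RMA produced according to the deposited labels (per the submitters' processing notes), from 1-colour Affymetrix arrays. Labelling used 2 amplification cycles, per the labels' protocols, which favours the 3' end of transcripts. No version, background setting or probe-level file was used here, so no detection call stands behind a value. The 75th percentile was 8.01 on the Dap12-KO IL-4 array and 8.50 to 8.56 on the others. The deposited values thus did not share 1 distribution over the 4 arrays.

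Names follow the platform annotation of GEO, updated through Entrez identifiers to the RefSeq table of GRCm38.p6. Probe sets that name several genes or none were left out, as were 64 controls. The brightest of a gene's probe sets by mean represented it, and 12767 genes whose highest array reached 6.39 entered the comparisons. Groups came from the sample titles.

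The 9 genes and all lists were chosen with earlier results of these data known. Named genes were the 9, list genes at 2-fold in a comparison of 2 arrays or otherwise among the 4 largest, and the 3 most similar to a gene spanning 1 log2 unit. Irf1, H2-K1, H2-D1, Calr, Canx, Pdia3, Tapbpl, Ms4a1, the proteasome pairs, and the genes below 2-fold under other observations were described after their values were seen. Genotype was not tested, since no label says whether the arrays of a genotype stem from separate mice. The spread behind limma's p-values is the difference of IL-4 responses between genotypes, pooled over genes. Any real difference of responses and the narrower Dap12-KO IL-4 array enter it. So does array-to-array spread, which may be technical, as separate mice are not stated. Tools were limma 3.58.1 in R 4.3.3 and Python 3.11.15 with numpy 2.4.6, pandas 2.3.3 and matplotlib 3.10.9. Simulated data with known changes were used to test the fit. The alternatives were cyclic loess (3 iterations), quantile normalization, median centring, the median over probe sets, other level floors, 3-fold and 1.5-fold thresholds, an intensity trend and no genotype term.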

Additional observations from a re-analysis of the deposited data

Results flagged for a closer look

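As deposited, B2m, Psmb8, Tapbp, Psmb10 and Nlrc5 of the 9 genes had opposite signs of the same contrast in both genotypes or both treatments. Each difference is below 2-fold as deposited, rests on 1 array a group and was not tested. The IL-4 response, Dap12-KO minus wild type, differed by −0.47 for B2m (−0.46 and 0.01) and by −0.33 for Psmb8 (−0.26 and 0.06). The same 2 genes had opposite genotype differences with IL-4 and untreated, at −0.37 and 0.10 for B2m and −0.30 and 0.03 for Psmb8. Genotype differences also had opposite signs for Tapbp (−0.20 with IL-4 and 0.00 untreated, a gap of −0.20), for Psmb10 (0.46 and −0.05, a gap of 0.51) and for Nlrc5 (−0.03 and 0.35, a gap of −0.37). After cyclic loess, of these gaps only that of B2m stayed negative, at −0.17, while Psmb8, Tapbp and Nlrc5 stood at 0.24, 0.25 and 0.23 and Psmb10 at 1.05. Under that scaling the opposite signs were kept by B2m alone. Genotype differences with IL-4 and untreated were then 0.37 and 0.13 for Psmb8, and 0.34 and 0.09 for Tapbp. They were 1.10 and 0.04 for Psmb10, and 0.67 and 0.44 for Nlrc5. The IL-4 differences of Psmb8 were then 0.34 in Dap12-KO and 0.10 in wild type. All of these gaps use the narrower Dap12-KO IL-4 array, whose part in them was not tested.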

How the results depend on the processing

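No paired analysis by replicate number was possible because each group holds 1 array and the labels number no replicates; the limma fit pairs IL-4 within genotype instead. Counts of the 9 genes at 2-fold changed as follows. With IL-4 in Dap12-KO, the count of higher genes became 1 with cyclic loess, quantile normalization, the median over probe sets and a 1.5-fold threshold. The count of lower genes became 0 with cyclic loess, quantile normalization and a 3-fold threshold, 2 with the median over probe sets and 3 at 1.5-fold. With IL-4 in wild type, 1 gene was lower at 1.5-fold. Between genotypes with IL-4, 2 were higher with cyclic loess and with quantile normalization, and 1 with the median over probe sets, where 1 was lower. At 1.5-fold 2 were lower. In the difference of responses 1 was higher with cyclic loess and with the median over probe sets, and 1 lower at 1.5-fold. Tap1 is the gene turned by the median over probe sets, at 1.08 for IL-4 in Dap12-KO, because 3 of its 4 probe sets are dim, and Erap1 is the gene lower between genotypes with IL-4 under it, at −1.43. Other counts were within 1.5 times of the values given, and the limma fit passed 0 of the 9 genes under all 8 alternatives. Of 270 recomputed differences, 29 moved by over 1.5-fold. Many of the 270 could not move: other level floors leave a gene's value as it is, as does the median over probe sets for genes with 1 probe set. Of 45 differences under each setting, 18 moved with cyclic loess, 7 with quantile normalization and 4 with the median over probe sets. With median centring all 45 stayed within that bound. The 1 difference past 2-fold as deposited, that of Nlrc5 with IL-4 in Dap12-KO, kept its sign. Under the median over probe sets, however, Tap1 turned from below 0 to past 2-fold in 3 comparisons. It stood at 1.08 for IL-4 in Dap12-KO, 1.11 between genotypes with IL-4 and 1.12 for the difference of responses. Why the dim and bright Tap1 probe sets differ, and the cause of the changes under other scalings, were not tested.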

Other observations

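Genes around the proteasome that no comparison above describes leaned lower on the untreated Dap12-KO array than on the wild type array. Of 8 activators and assembly factors above the floor, 0 passed 2-fold, where 3.12% of all genes were higher and 3.41% lower, with a median of −0.48 beside 0.03 over all genes. The activator subunits Psme3 and Psme1 differed by −0.72 and −0.20, and the assembly factors Psmg4, Pomp and Psmg1 by −0.68, −0.52 and −0.48. The activator Psme4 and the assembly factor Psmg2 went the other way, at 0.09 and 0.02. After cyclic loess the list median was −0.37, beside 0.09 over all genes. With IL-4, Psmg2 and Psmg1 were the 2 of 8 past 2-fold between genotypes, where 17.6% of all genes were lower. Psmg2 stood at −1.41, and Psmg1 had levels of 9.12 against 10.12. After cyclic loess 0 passed, where 5.33% of all genes were lower and 12.6% higher.

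Cytosolic peptidases differed among themselves. Of 7 above the floor, Thop1, which destroys peptides in the cytosol, was lower on the untreated Dap12-KO array by −1.03, at 7.27 against 8.30, and bleomycin hydrolase (Blmh) by −0.94, at 9.73 against 10.67. Thop1 was the 1 of 7 past 2-fold, where 3.41% of all genes were lower, and after cyclic loess it fell short, at −0.96, with Blmh at −0.84. With IL-4 the same contrast was −0.99 for Thop1 and −1.45 for Blmh, and −0.48 and −0.73 after cyclic loess. Blmh was the 1 of 7 past 2-fold there, where 17.6% of all genes were lower. The tripeptidyl peptidase Tpp2 differed by 0.05 and the puromycin-sensitive aminopeptidase Npepps by 0.58 untreated.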
